A study of Homo sapiens with 4 samples.

Results

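The 10 genes described here are *POU5F1*, *NANOG*, *MYC*, *LIN28*, *SALL4*, *DPPA4*, *UTF1*, *FGF4*, *ZFP42* and *TDGF1*, a set of pluripotency factors and markers other than *SOX2*, out of 27739 genes and transcripts measured in LN229 cells. They were chosen by name, and a probe was taken for a gene where its gene symbol on the array equalled that name, which gave 14 of 32886 usable probes. The questions were which of them lay above background in glioma cells, and how each differed once *SOX2* was knocked down. The samples were 2 arrays of mock knockdown, in which LN229 cells received a non-targeting siRNA, and 2 arrays of *SOX2* knockdown, in which they received siRNA against *SOX2*. LN229 is an established human glioblastoma line. The knockdown was transient, so every group is the same line without a genetic change, and each replicate had its own transfection. The treatment field of the labels names a different line, SW620 from colon carcinoma, while the other fields name LN229. Of 11 glioma and neural stem cell markers 10 were above background, *VIM*, *CD44*, *NES*, *GFAP* and *OLIG2* among them, and *MSI1* was not. Of 11 colon epithelial markers 6 were above background, namely *CDH1*, *CDX2*, *VIL1*, *LGALS4*, *KRT8* and *KRT18*, while *EPCAM*, *KRT20*, *CDH17*, *GPA33* and *MUC2* were not. By the rule of these counts, above background on both arrays of a group, 18378 of all 27739 features passed. The feature found for *CDH1*, one of those 6, also carries the symbol of *RPL23A* and so does not measure *CDH1* alone. The summed signal of the colon list ran from 19.8 to 55.3 in mock cells, compared with 29.3 to 53.5 after *SOX2* knockdown, most of it from that feature. The glioma list summed to 188 and 236 in mock cells, compared with 179 and 168 after *SOX2* knockdown, and most of that sum came from *SPARC*, *VIM*, *S100B* and *FABP7*. Of its 10 genes kept, 7 were higher and 3 lower after knockdown, with a median log2 change of 0.06. Those 3 were *SPARC*, *S100B* and *FABP7*, and *FABP7*, a fatty acid binding protein of radial glia, was the one past 2-fold, with a mean signal of 20.6 ± 2.01 (SD, 2 arrays) in mock cells and 10.1 ± 0.167 (SD, 2 arrays) after *SOX2* knockdown, a ratio of 0.492 (adjusted p 0.101 in limma).

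Pluripotency is the ability of an early embryonic cell to form all tissues of the body. In embryonic stem cells it rests on a small circuit of transcription factors in which OCT4, the product of *POU5F1*, binds DNA side by side with SOX2 on composite elements, and together with NANOG they occupy each other's genes as well as *UTF1*, *FGF4* and *ZFP42*. Adult somatic cells silence most of this circuit, and OCT4, SOX2, KLF4 and c-MYC, or OCT4, SOX2, NANOG and LIN28, are the classic combinations that restore it. *MYC* differs from the rest in being expressed in most dividing cells.

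Upstream letters were searched for 3 exact strings of the kind that OCT4 and SOX2 read. They are shown for 3 of the genes, 1 that matched both kinds of string and a pair that matched neither. The comparison turns on genes that SOX2 is known to bind in stem cells. The study's own SOX2 consensus in LN229 cells, wwTGnwTw with w for A or T, was not searched. A window without a match here can still hold that consensus. The sequences are the 250 bases before the start of the gene in RefSeq (GRCh38.p14), written 5′ to 3′ on the strand of the gene, and capitals mark matches to ATGCAAA (a POU factor site), CATTGT or CTTTGT (SOX factor sites) on either strand. The *NANOG* stretch lies at chr12:7789152-7789401 on the plus strand, the *UTF1* stretch at chr10:133229967-133230216 on the plus strand, and the *DPPA4* stretch at chr3:109337547-109337796 on the minus strand.
NANOG: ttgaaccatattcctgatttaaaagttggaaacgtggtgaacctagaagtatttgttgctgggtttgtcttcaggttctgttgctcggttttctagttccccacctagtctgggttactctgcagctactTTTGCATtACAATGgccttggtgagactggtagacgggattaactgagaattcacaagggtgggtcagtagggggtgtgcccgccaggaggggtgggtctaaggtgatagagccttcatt
UTF1: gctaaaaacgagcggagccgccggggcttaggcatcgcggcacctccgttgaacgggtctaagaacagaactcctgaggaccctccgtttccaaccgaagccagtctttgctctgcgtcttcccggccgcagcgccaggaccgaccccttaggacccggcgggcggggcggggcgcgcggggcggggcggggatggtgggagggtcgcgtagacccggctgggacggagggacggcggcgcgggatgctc
DPPA4: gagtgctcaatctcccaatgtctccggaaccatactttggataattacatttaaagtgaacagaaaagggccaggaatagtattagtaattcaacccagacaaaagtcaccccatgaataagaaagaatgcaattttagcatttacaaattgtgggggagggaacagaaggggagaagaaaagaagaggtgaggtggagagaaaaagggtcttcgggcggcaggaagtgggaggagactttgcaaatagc
In *NANOG* the POU letters span bases 120 to 114 before the start and the SOX letters bases 112 to 107, both on the reverse strand and 1 base apart. Of 35116 promoter windows of the same length, 3.94% hold ATGCAAA, 9.29% hold CATTGT and 13.7% hold CTTTGT on either strand, and the matches in *NANOG* share no base. No match to any of the 3 lay in the *UTF1*, *DPPA4* or *ZFP42* window. Sites outside these 250 bases, further upstream or downstream of a gene, were not searched. *TDGF1*, now named *CRIPTO*, has 2 start sites in the table, and the window of the second holds CATTGT once. RefSeq's table gave windows for 5 of the 10 genes. *POU5F1*, *MYC*, *LIN28*, *SALL4* and *FGF4* had no entry. These are matches of letters only, and no binding was measured in the data used here. The study's separate map of SOX2 binding in LN229 cells placed *UTF1*, but neither *NANOG* nor *POU5F1*, among the SOX2 targets. Those targets were assigned as the nearest gene to a bound region, not by the windows shown here.

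Signals below are the deposited signals, not the separate assay-normalized ones, divided by the 75th percentile of their array. Probes of one Celera gene ID were averaged first, and a value of 1 equals that percentile. A probe's own binding strength sets its signal, so values are compared between arrays for 1 gene and not between genes. Detection was read from the signal-to-noise ratio (S/N) of the scanner, with S/N over 3 taken as above background. The share of all gene probes with S/N over 3 was between 63.5% and 68.9% per array. Of 196 negative control spots, between 12 and 23 (6.12% to 11.7%) also had S/N over 3. A single reading just over 3 therefore lies within the range that control spots reached. Their 95th percentile lay between 3.83 and 6.07 per array, and their highest S/N between 66.5 and 95.7. S/N over 3 alone thus does not separate a gene from every control spot. Features were compared between the groups where both arrays of a group, either one, had S/N over 3, which kept 18378 of 27739 and 4 of the 10 genes. The number of arrays, 2 per group, limits the precision of every comparison. In RNA from a whole culture, fewer cells with a transcript and less of it per cell cannot be told apart.

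The knockdown itself was checked first. *SOX2* had a signal of 0.454 and 0.682 in mock cells, compared with 0.204 and 0.145 after *SOX2* knockdown. Each knockdown array was lower than each mock array. The ratio of the means was 0.308, and the log2 change in limma was −1.69 ± 0.28 (SE, 2 arrays per group) with an adjusted p of 0.114. On the knockdown arrays its S/N was 3.17 and 3.06, so the remaining signal was close to the background limit. Both were under the 95th percentile of the control spots, 4.56 and 6.07. In mock cells its S/N was 5.17 and 13.6, beside 5.44 and 3.83 for the control spots. The size of the fall in RNA is therefore uncertain. At the protein level, the study reported an almost complete knockdown by Western blot.

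In mock knockdown cells, 4 of the 10 genes had S/N over 3 on both arrays: *MYC*, *UTF1*, *FGF4* and *POU5F1*. The same held for 63.3% of all features. *POU5F1* had the lowest S/N of the 4, at 5.42 and 4.10, close to the 95th percentile of the control spots on those arrays, 5.44 and 3.83. Counting a gene where any single probe passed on both mock arrays added *DPPA4* and made it 5 of 10. Of all single probes 61.5% passed, which is a share of probes and not of genes. The share of all genes with any such probe was not computed. *NANOG*, *LIN28*, *SALL4*, *ZFP42* and *TDGF1* passed in neither way. Of the 14 probes, 6 had S/N over 3 on all 4 arrays, and 4 had it on none.

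**Figure D1:**
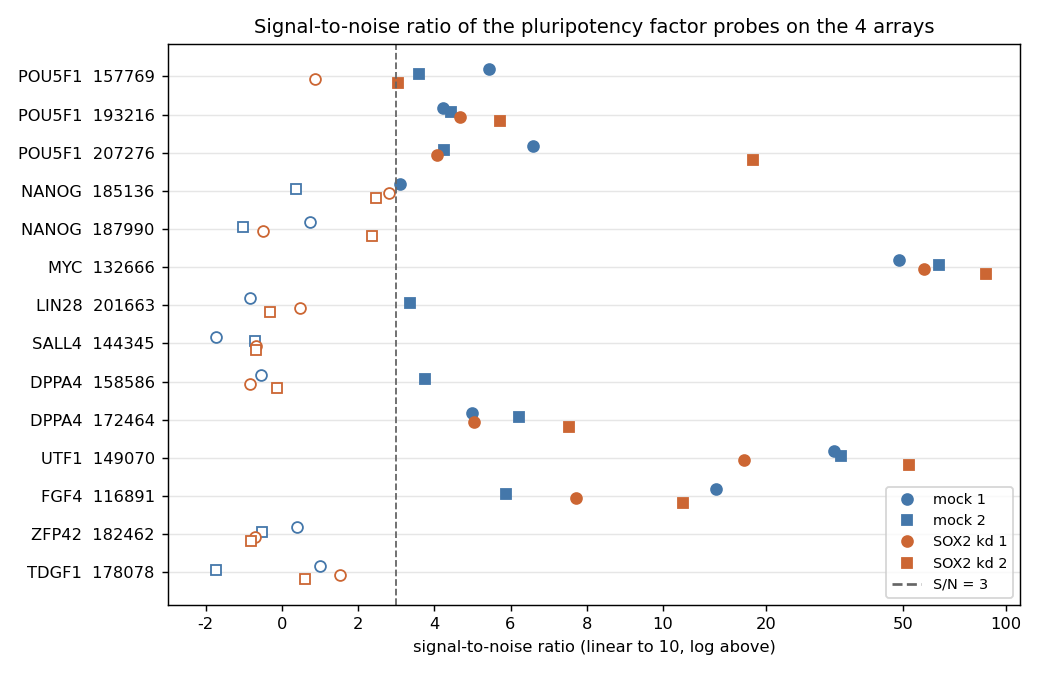
Signal-to-noise ratio of each of the 14 probes (gene and probe number on the y axis) on the 4 arrays, on an x axis that is linear to 10 and logarithmic above. Blue marks are mock knockdown, orange marks SOX2 knockdown (kd), circles replicate 1, squares replicate 2, filled marks have S/N over 3 (dashed line), and only MYC, UTF1, FGF4, DPPA4 probe 172464 and POU5F1 probes 193216 and 207276 are filled on all 4 arrays.

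Among the transcription factors of the core circuit, *POU5F1* was measured by 3 probes and *NANOG* by 2. *POU5F1* encodes OCT4, the POU-domain partner of SOX2. Averaged over its probes, its signal was 0.180 and 0.137 in mock cells, compared with 0.129 and 0.189 after *SOX2* knockdown. The groups overlapped fully, with the knockdown arrays giving both the lowest and the highest value. The log2 change was −0.01 ± 0.26 (SE) with a 95% interval from −0.70 to 0.68 and an adjusted p of 0.996 in limma, which is 0.617-fold to 1.61-fold.

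The 3 *POU5F1* probes did not move alike. Probe 157769, the one of the 3 whose annotation names a RefSeq transcript of the gene, read 0.0479 and 0.0436 in mock cells, compared with 0.0163 and 0.0201 after *SOX2* knockdown. Both knockdown readings were below both mock readings, and the ratio of the means was 0.399. Its S/N was 5.44 and 3.60 in mock cells, compared with 0.87 and 3.04 after knockdown. On *SOX2* knockdown array 1 the reading was not above background, so that array sets no fold for this probe. In limma over single probes its log2 change was −1.33 ± 0.17 (SE) with an adjusted p of 0.0945. That estimate takes both knockdown readings at face value, although S/N of 0.87 and 3.04 was under the 95th percentile of the negative control spots, 4.56 and 6.07. The mock readings, with S/N of 5.44 and 3.60, also lay close to theirs, 5.44 and 3.83. The estimate therefore does not measure the size of a difference. The probe was the only one of 7 *POU5F1*, *MYC*, *DPPA4*, *UTF1* and *FGF4* probes kept for comparison that passed 2-fold, beside 1.04% of all single probes kept that were lower by over 2-fold. It had entered that comparison through the mock arrays alone, where it was the higher.

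Probe 193216 of *POU5F1* read 0.0627 and 0.144 in mock cells, compared with 0.0638 and 0.101 after *SOX2* knockdown. Both of its replicate 2 readings were above both replicate 1 readings, and its log2 change was −0.24 ± 0.48 (SE), adjusted p 0.886 in limma. Probe 207276 read 0.444 and 0.234 in mock cells, compared with 0.316 and 0.461 after *SOX2* knockdown. Its groups overlapped, and its log2 change was 0.24 ± 0.38 (SE), adjusted p 0.850 in limma. The mean by gene ID is taken on the linear scale, and most of it came from the readings of probe 207276. *POU5F1* has processed pseudogenes and a near-identical copy elsewhere in the genome, whether these probes tell them apart was not tested, and the gene's value is uncertain for that reason.

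**Figure D2:**
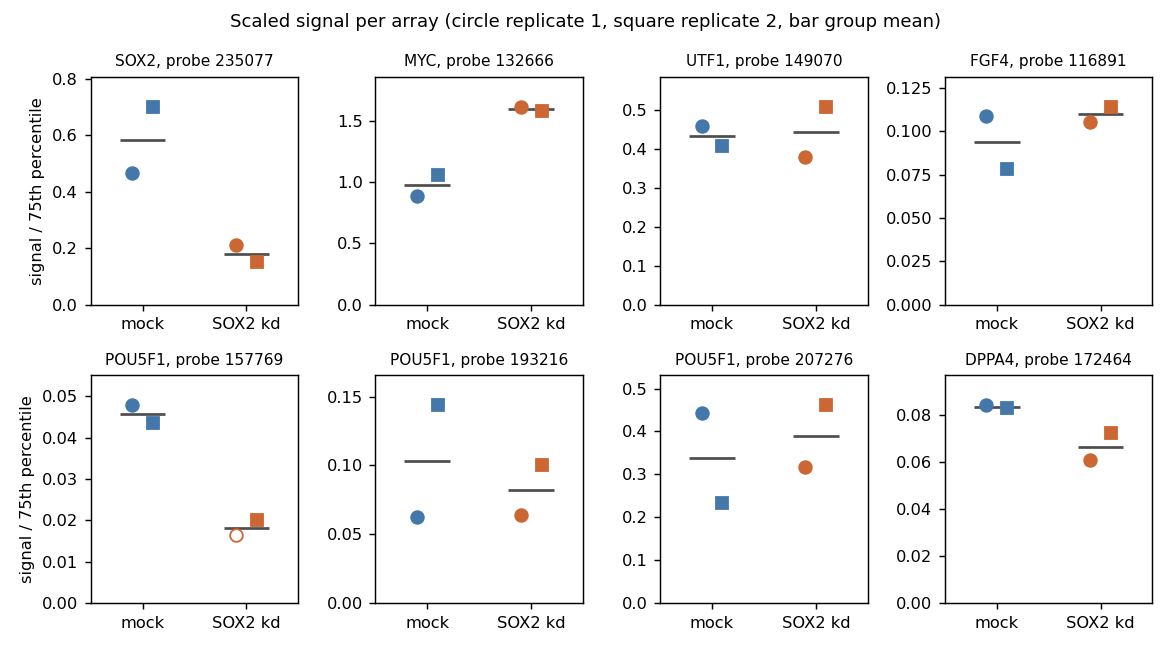
Signal of single probes on each array, relative to the 75th percentile of the array, for SOX2 and for the probes kept for comparison, each panel with its own linear y axis from 0. Blue is mock knockdown, orange SOX2 knockdown (kd), circles replicate 1, squares replicate 2, bars the group mean, and the open circle marks S/N of 3 or less. SOX2 is lower and MYC higher on both knockdown arrays, and the 3 POU5F1 probes differ in direction.

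*NANOG*, the homeodomain factor whose upstream stretch with the adjacent POU and SOX letters is printed above, was not above background. Its S/N by probe was 3.09 and 0.36 in mock cells, compared with 2.80 and 2.46 after *SOX2* knockdown for probe 185136. For probe 187990 it was 0.74 and −1.02 in mock cells, compared with −0.50 and 2.37 after *SOX2* knockdown. Only 1 of these 8 readings was over 3, and no fold is given. *SALL4*, a zinc finger factor of the same circuit, had S/N between −1.74 and −0.67 on the 4 arrays. *ZFP42*, which encodes REX1, had S/N between −0.80 and 0.41. Neither gave a reading above background in either condition, at the sensitivity of 1 probe each.

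*UTF1* is a chromatin-associated factor and a direct OCT4 and SOX2 target in embryonic stem cells. It was above background, with S/N of 31.5 and 33.0 in mock cells. The control spots of those arrays had a 95th percentile of 5.44 and 3.83 and a highest value of 66.5 and 95.7. The signal of *UTF1* was 0.446 and 0.397 in mock cells, compared with 0.369 and 0.495 after *SOX2* knockdown. The groups overlapped, with both extremes again on the knockdown arrays. The ratio of the means was 1.02, and the log2 change was 0.02 ± 0.19 (SE) with a 95% interval from −0.50 to 0.54 and an adjusted p of 0.984 in limma.

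*DPPA4*, a nuclear protein of pluripotent cells and the early germ line, was read by 2 probes that differed in detection. Probe 172464 read 0.0842 and 0.0828 in mock cells, compared with 0.0609 and 0.0721 after *SOX2* knockdown, with S/N from 4.99 to 7.54. Its groups did not overlap, the ratio of the means was 0.796 and the log2 change was −0.33 ± 0.15 (SE), with an adjusted p of 0.364 in limma over single probes. Probe 158586 had S/N over 3 on mock array 2 alone, at 3.76, and from −0.83 to −0.12 on the others. Averaged by gene ID, S/N was over 3 on replicate 2 of each group and was 2.23 and 2.11 on replicate 1, so *DPPA4* was not among the features compared.

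Of the signalling genes, *FGF4* encodes a growth factor whose enhancer is a classic joint target of OCT4 and SOX2. It had S/N from 5.89 to 14.3 on the 4 arrays. Its signal was 0.106 and 0.0764 in mock cells, compared with 0.103 and 0.111 after *SOX2* knockdown. The groups overlapped, and the spread between the mock arrays was wider than the distance between the group means. The ratio was 1.17 and the log2 change 0.25 ± 0.20 (SE), with a 95% interval from −0.29 to 0.79 and an adjusted p of 0.641 in limma. *TDGF1*, a membrane-anchored co-receptor for NODAL, had S/N from −1.73 to 1.52 and was at the floor of the scale on 3 of the 4 arrays.

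*LIN28*, now named *LIN28A*, encodes the RNA-binding protein that blocks maturation of the let-7 microRNAs. Its S/N was −0.84 and 3.35 in mock cells, compared with 0.48 and −0.31 after *SOX2* knockdown. A single mock reading was over 3, and it was not among the features compared. Its paralogue *LIN28B* was detected, with signals of 0.396 and 0.334 in mock cells, compared with 0.384 and 0.480 after *SOX2* knockdown. The groups overlapped and the ratio was 1.18, adjusted p 0.612 in limma. A second *LIN28B* feature on the array was not above background.

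*MYC*, the growth-promoting transcription factor of the set, was the one of the 4 genes kept whose groups stood apart. Its signal was 0.862 and 1.03 in mock cells, compared with 1.58 and 1.54 after *SOX2* knockdown, with S/N of at least 48.6 on each. Both knockdown arrays were above both mock arrays, by more than the spread within either group. The ratio of the means was 1.64, and the log2 change was 0.72 ± 0.15 (SE) with a 95% interval from 0.33 to 1.12, which is 1.25-fold to 2.18-fold. The unadjusted p in limma was 0.00636 and the adjusted p 0.138, so *MYC* did not pass the threshold over all features. Of all features kept, 5.08% were 1.5-fold or more higher, and 3158 had an unadjusted p under 0.05. Leaving out each array in turn moved its log2 change between 0.59 and 0.86.

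Counted over the 10 genes, none passed 2-fold in either direction, beside 2.38% of the features kept, and none passed an adjusted p of 0.05, beside 0% of the features kept. No feature reached that p, while 3 did when S/N over 3 was asked of all 4 arrays, 240 when limma's variance was allowed to follow the mean signal and 669 with median scaling, none of the 10 genes among them in any of these settings. Of the 4 genes kept, 1 had groups that did not overlap, beside 47.2% of features kept, and of their 7 kept probes with the *DPPA4* probe, 3 did so, the *POU5F1* probe with knockdown readings near background among them, beside 47.0% of single probes kept. *POU5F1*, *UTF1* and *FGF4* shared an order of the arrays, with mock 1 above mock 2 and *SOX2* knockdown 2 above *SOX2* knockdown 1, as did 33.2% of the features kept. Over those features the differences between replicates 1 and 2 were correlated at −0.50 between the groups, a description across genes that are not independent replicates. The part of that difference between arrays in the values of these 3 genes was not tested.

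**Figure D3:**
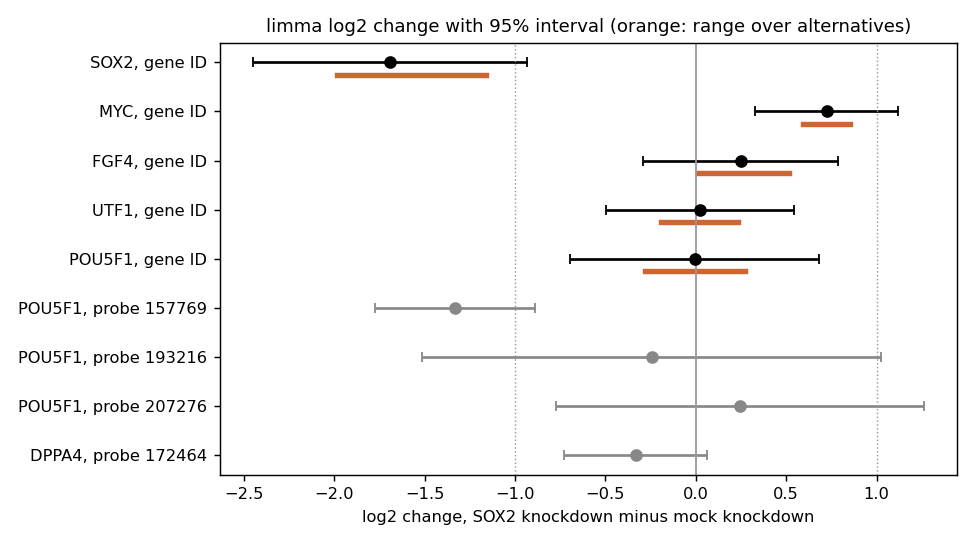
limma log2 change (x axis, SOX2 knockdown minus mock knockdown) with its 95% interval, in black for SOX2 and the 4 genes kept by gene ID and in grey for single probes of POU5F1 and DPPA4, with dotted lines at 2-fold. Orange bars span the values under the alternative settings other than single probes, from 0.59 to 0.86 for MYC and on both sides of 0 for UTF1 and POU5F1.

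The features whose array pattern was nearest to that of *MYC*, by Euclidean distance of gene-centred log2 values over the 4 arrays among 13588 features with a symbol, were *UPP1* (distance 0.0197), *CD163L1* (0.0229) and *SRXN1* (0.0343). Their ratios of *SOX2* knockdown to mock were 1.63, 1.67 and 1.64. With 4 arrays such a likeness describes the order and spacing of 4 values.

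The genes that act with these factors were taken from 7 lists, of which 101 distinct genes were kept, 8 of them on features that carry a further symbol. Of the 101, 4 passed 2-fold, 3 of them higher, and none passed an adjusted p of 0.05. Past 2-fold in either direction were also 2.38% of all features kept. Without mock array 1 the count was 7, the 4 genes and *LEFTY1*, *MIXL1* and *SALL3* (the last 3 singled out after their values were seen). On the mock array that remained, those 3 had S/N of 1.28, 2.84 and 1.94, not above background, and with both mock arrays they had entered the comparison through the *SOX2* knockdown arrays, where their mean signal was higher, so no ratio is given for them. The median log2 change over all features kept was 0.0018, against which the medians below are to be read.

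For *MYC*, the partner and family list had 13 of 15 genes kept, with a median log2 change of −0.03 and 0 past 2-fold. *MAX*, the obligate dimer partner of MYC proteins, had a ratio of 0.97, adjusted p 0.961 in limma. *MYCN*, the neuronal relative of *MYC*, was 0.509 and 0.477 in mock cells, compared with 0.376 and 0.459 after *SOX2* knockdown. Its groups did not overlap, and its ratio was 0.848, adjusted p 0.527 in limma. Of 25 target genes of MYC in ribosome assembly, nucleotide synthesis and metabolism, 23 were kept, 12 higher and 11 lower, with a median of 0.03 and 0 past 2-fold.

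Among 37 other pluripotency genes found on the array, 24 were kept, with a median of 0.14, 15 higher and 9 lower, and 1 past 2-fold. That gene was *KLF5*, a Krüppel-like factor that supports self-renewal of embryonic stem cells. It read 0.852 and 0.762 in mock cells, compared with 1.67 and 1.71 after *SOX2* knockdown, without overlap. Its ratio was 2.09 and its log2 change 1.07 ± 0.13 (SE), with an adjusted p of 0.0980 in limma. *KLF4*, the Krüppel-like factor of the reprogramming set, was 0.226 and 0.180 in mock cells, compared with 0.204 and 0.239 after *SOX2* knockdown. Its groups overlapped, and its ratio was 1.09, adjusted p 0.823 in limma.

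Of the POU-domain factors related to OCT4, 5 of 13 found were kept, with a median of 0.05 and 0 past 2-fold. The LIN28 and let-7 list had 12 of 13 kept, with a median of −0.03 and 0 past 2-fold. The receptors and partners of FGF4 and TDGF1 had 13 of 18 kept, with a median of 0.13 and 0 past 2-fold.

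The early lineage genes, which the circuit holds down or keeps poised in stem cells, had 14 of 18 kept, with a median of 0.10, 2 higher and 1 lower by over 2-fold. *GATA3*, a zinc finger factor of trophectoderm, was 0.385 and 0.338 in mock cells, compared with 1.48 and 1.53 after *SOX2* knockdown, a ratio of 4.16. *GATA6*, a related factor of primitive endoderm, was 0.443 and 0.477 in mock cells, compared with 1.74 and 1.51 after *SOX2* knockdown, a ratio of 3.53. *SOX1*, an HMG-box factor of early neural tissue and a close relative of *SOX2*, was 0.279 and 0.327 in mock cells, compared with 0.101 and 0.0931 after *SOX2* knockdown, a ratio of 0.321. In each of the 3 the groups did not overlap. The adjusted p in limma was 0.0700 for *GATA3*, 0.0701 for *GATA6* and 0.0763 for *SOX1*, none past 0.05.

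**Figure D4:**
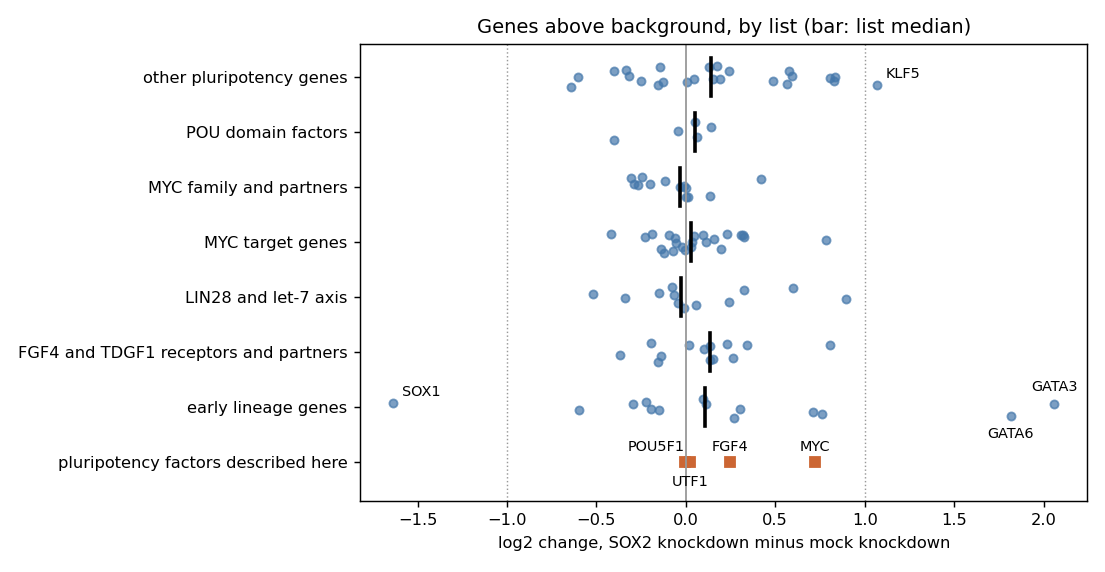
limma log2 change (x axis, SOX2 knockdown minus mock knockdown) of the genes above background in 7 lists and of the 4 pluripotency factors kept, one point a gene, with the list median as a black bar and dotted lines at 2-fold. The list medians lie between −0.03 and 0.14, and GATA3, GATA6, SOX1 and KLF5 lie past 2-fold.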

How the data were processed

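RNA of LN229 cells after *SOX2* or mock knockdown was hybridised to 4 one-colour Applied Biosystems Human Genome Survey arrays, grouped by the source name of each sample. The deposited scanner files hold intensity columns in linear units, among them the signal used here and an assay-normalized signal used as an alternative. Per the file headers S/N is a score for each spot. A second deposited table holds a ratio per probe that the authors computed and scaled. Software versions are not given in the sources used here. Of 33096 gene probes, 210 with flags of 5000 or more were dropped, a limit read from the values since the meaning of the flags is not stated. Signals and S/N were averaged by Celera gene ID, divided by the 75th percentile of the array, floored at 0.01 and put on the log2 scale. limma 3.58.1 (R 4.3.3; lmFit, eBayes, two-sided, Benjamini-Hochberg over all features kept) was the test, checked on simulated data, and the 2-fold cutoff of group means follows the study's methods. With 2 arrays against 2, a two-sided exact permutation test cannot go below 0.333, so none was run. Folds are on the scale with the floor, which can hold down changes of genes whose values reach it. For other dim genes, whether folds are too large or too small was not tested. None of the 10 genes or their probes was dim on both arrays of one group while above background on both of the other, so no lower bound was given for them.

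The 10 genes and the lists were chosen with earlier results of these data known. Genes named are the 10, *SOX2*, list genes past 2-fold (at most 4 per list), *KLF4*, *MYCN*, *MAX*, *LIN28B* and the 3 features nearest to *MYC* in pattern. The brightest feature of a symbol was used. Alternatives covered scaling, background correction, floor, filters, single probes, fold cutoff, variance model, replicate block and each array left out.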

Additional observations from a re-analysis of the deposited data

How the results depend on the processing

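The count of detected genes in mock cells was 5 at an S/N limit of 2 and 3 at a limit of 5, and 4 to 6 with 1 mock array left out. The count past 2-fold stayed at 0 except for 1 with single probes (*POU5F1*) and 1 at a 1.5-fold cutoff (*MYC*), and with 1 array left out it was 0 to 0. The count past an adjusted p of 0.05 was 0 under every alternative run, with 1 array left out 0 to 0. List genes past 2-fold numbered 4 to 6 under settings with all arrays except normexp, which gave 3, and 5 to 7 with 1 array left out, the 7 without mock array 1. *MYC* stayed higher throughout, at a log2 change of 0.59 to 0.86 with adjusted p from 0.0746 to 0.637. *FGF4* stayed above 0, from 0.01 to 0.52. *POU5F1* turned positive with probe 207276 alone (0.24) and ran from −0.28 to 0.27 with 1 array left out. *UTF1* turned negative with median scaling (−0.011), the series table (−0.0042), the assay-normalized signal (−0.0074) and normexp (−0.14), and ran from −0.19 to 0.23 with 1 array left out. *SOX2* passed the threshold with median scaling (−1.72, adjusted p 3.02e-07) and the series table (−1.72, adjusted p 3.01e-07). The cause was not tested.

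The labels number the replicates, but nothing says that equal numbers share a day or culture, and deviations from the group means were correlated at −0.50 between equal numbers. With the replicate number as a block 0 of the 10 genes passed. A crossed pairing, added after the data were seen, gave 0 calls among the 10 and 0 over all features. No slide or scan batch held more than 1 array, so a batch block was not run. The strict limit for dim signals did not apply to the 10 genes or their probes. S/N limits what can be said of *NANOG*, *LIN28*, *SALL4*, *ZFP42* and *TDGF1*, whose differences lie within their own error.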

Other observations

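Genes outside the naming rule, singled out after their values were seen, also had groups that did not overlap, as did 47.2% of all features kept. The first 5 were higher after *SOX2* knockdown and the last 3 lower, and none passed 2-fold or an adjusted p of 0.05. *KLF2*, a further Krüppel-like factor of naive stem cells, read 1.28 and 1.20 in mock cells, compared with 2.23 and 2.19 after *SOX2* knockdown, a ratio of 1.78 with an adjusted p of 0.103 in limma. *ODC1*, the first enzyme of polyamine synthesis and a target of MYC, read 2.56 on both mock arrays, compared with 4.38 and 4.42 after *SOX2* knockdown, a ratio of 1.72 with an adjusted p of 0.105 in limma. *IGF2BP3*, an mRNA-binding protein on the let-7 list, read 3.15 and 3.22 in mock cells, compared with 4.82 on both arrays after *SOX2* knockdown, a ratio of 1.51 with an adjusted p of 0.135 in limma. *ARID3A*, on the same list, read 0.271 and 0.291 in mock cells, compared with 0.564 and 0.484 after *SOX2* knockdown, a ratio of 1.86 with an adjusted p of 0.112 in limma. *FBXW7*, the ubiquitin ligase subunit that marks MYC for degradation, read 2.46 and 2.59 in mock cells, compared with 3.30 and 3.46 after *SOX2* knockdown, a ratio of 1.34 with an adjusted p of 0.218 in limma. *TCF7L1*, a repressor that acts at the end of the Wnt pathway in stem cells, read 0.371 and 0.372 in mock cells, compared with 0.262 and 0.229 after *SOX2* knockdown, a ratio of 0.661 with an adjusted p of 0.158 in limma. *TUT4*, the uridylyl transferase that LIN28 recruits to let-7 precursors, read 0.294 and 0.289 in mock cells, compared with 0.210 and 0.196 after *SOX2* knockdown, a ratio of 0.697 with an adjusted p of 0.165 in limma. *SALL2*, a zinc finger relative of *SALL4*, read 0.0979 and 0.106 in mock cells, compared with 0.0767 and 0.0556 after *SOX2* knockdown, a ratio of 0.648 with an adjusted p of 0.232 in limma.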
